A study of Mus musculus with 6 samples.

Results

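The 10 genes examined here encode transcription factors of natural killer (NK) cell development and maturation: Eomes, Tbx21, Gata3, Tox, Tcf7, Prdm1, Id2, Ikzf3, Nfil3 and Zeb2. They were found by their gene symbols in a table of 57180 mouse genes, and all 10 were among the 14761 genes with enough counts to be tested. The series holds 3 libraries of CD36+ NK and 3 of CD36- NK cells, separated from mouse livers with fibrosis, to ask how NK cells that carry the fatty acid receptor CD36 differ from those that do not. Both groups came from male C57BL/6J mice of 6 to 8 weeks that had received intraperitoneal CCl4 (2.5 ml/kg of a 20% solution in olive oil, 2 injections per week for 4 weeks), and livers were taken 48 h after the last injection. No library from mice without CCl4 was analysed here. The study's flow cytometry used a CD3- NK1.1+ gate for hepatic NK cells, and whether the sequenced cells had that gate was not given in the sources used here. The series names the libraries biological triplicates, but whether each came from 1 mouse or from pooled mice was not given in the sources used here, so p-values measure only the spread between these samples.

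NK cells arise from lymphoid progenitors under a small set of transcription factors. Nfil3, Id2, Tox and Tcf7 act early, when progenitors commit to the innate lymphoid lineages. The T-box factors Eomes and T-bet (encoded by Tbx21) then establish NK cell identity and effector function, and T-bet, Zeb2, Prdm1 (Blimp-1) and Ikzf3 (Aiolos) accompany terminal maturation. In the mouse liver, Eomes separates conventional NK cells from the resident type 1 innate lymphoid cells (ILC1), which depend on T-bet. Most of these factors are also used by other immune cells: Gata3 and Tcf7 by T cells, Ikzf3 by B cells, Prdm1 by plasma cells and Zeb2 by macrophages.

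The libraries held 10292480 to 13787189 counts. Levels are in CPM, which are counts made comparable between libraries by the TMM method. Cd36, the gene of the sorted marker, had 110, 263 and 238 CPM in the CD36+ NK libraries and 14.3, 31.7 and 17.1 CPM in the CD36- NK libraries (log2 fold change, log2FC, 3.27 with a standard error, SE, of 0.426 and an adjusted p of 0.00615 by edgeR's quasi-likelihood test). The library names of the samples titled CD36+ NK carry a double hyphen after CD36 and no plus, which can be read against their titles, and the titles were followed. All 12 genes of an NK lineage list were detected in every library, and 12 of 12 were lower in CD36+ NK, with summed levels of 1247 to 1549 CPM against 6525 to 8451 CPM. Of 8 B cell marker genes, 0 were called by edgeR or DESeq2, but 8 of 8 had an unadjusted p below 0.05 and lay higher in every CD36+ NK library, and their summed level was 11240 to 12960 CPM in CD36+ NK and 6813 to 8943 CPM in CD36- NK. Of 13 macrophage and Kupffer cell marker genes, 11 were tested and 4 were higher in CD36+ NK by edgeR (8 by DESeq2, and 10 at an unadjusted p below 0.05), with a median log2FC of 2.87 over the list and summed levels of 6847 to 9546 CPM against 2531 to 5860 CPM. Much of that sum was Lyz2, whose groups overlapped (log2FC 0.09). The defining Kupffer cell gene Clec4f was at 0 in the 3 CD36- NK libraries and had 1.51, 45.9 and 0 CPM in CD36+ NK, so it was high in 1 library alone. The part of these cell types in the levels of the transcription factor genes was not tested.

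The T-box genes Eomes and Tbx21 were lower in CD36+ NK cells, and so were Gata3 and Tox. Thus 4 of the 10 genes were called lower as differentially expressed genes (DEGs, with both a p under 0.05 after Benjamini-Hochberg adjustment and more than 2-fold change), against 2.98% of all tested genes called lower. None of the 10 was called higher by edgeR or by DESeq2, against 2.98% of all tested genes by edgeR (440 genes, which became 94 without CD36- NK replicate 1, 708 without CD36- NK replicate 2 and 652 by DESeq2), and the 8 with an unadjusted p below 0.05 all had a log2FC below 0. The CD36+ NK libraries lay below all CD36- NK libraries in 8 of the 10 genes, as they did in 15.7% of all tested genes. The groups overlapped in Zeb2 and Nfil3. The median log2FC over the 10 genes was -1.05, and over all tested genes it was 0.0116. RNA was measured in bulk, so fewer cells that express a factor and less of its RNA per cell cannot be told apart.

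**Figure D1:**
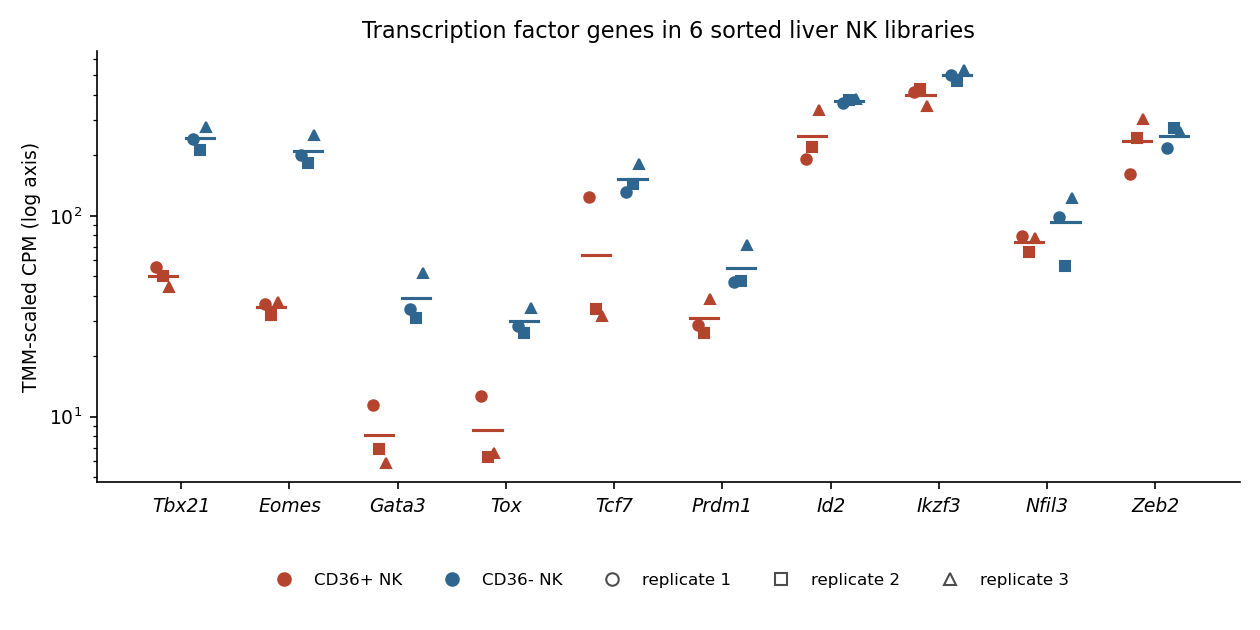
Levels of the 10 transcription factor genes in TMM-scaled CPM (log axis) in each of 6 libraries, with a bar at the mean of each group of 3 libraries. The groups are wide apart in Tbx21 and Eomes, they overlap in Nfil3 and Zeb2, and in Tcf7 a single CD36+ NK library sits at 125 CPM beside the CD36- NK libraries.

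Eomes (ENSMUSG00000032446; plus strand of chromosome 9, 118307280 to 118315200 in the table's coordinates, which name no build) had 36.3, 32.2 and 37.2 CPM in CD36+ NK replicates 1 to 3. In the CD36- NK libraries it had 199.6, 182 and 251 CPM. Every CD36+ NK library was far below every CD36- NK library, and the mean level in CD36+ NK was 16.7% of that in CD36- NK (log2FC -2.58, SE 0.145, edgeR adjusted p = 0.000428). Within CD36+ NK the highest library was only 1.16 times the lowest, the narrowest spread of the 10 genes in that group. Tbx21 (ENSMUSG00000001444; minus strand of chromosome 11, 96988897 to 97006157) had 55.7, 49.9 and 44.1 CPM in CD36+ NK and 241, 212 and 275 CPM in CD36- NK. Its groups were also far apart, with a mean in CD36+ NK that was 20.6% of that in CD36- NK (log2FC -2.28, SE 0.139, edgeR adjusted p = 0.000428). By p-value, Eomes was at place 9 and Tbx21 at place 17 among all tested genes. Leaving out any library kept both genes called, with adjusted p-values up to 0.00476 for Eomes and 0.00538 for Tbx21.

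The promoters of Eomes, Tbx21 and Gata3 are shown, 3 of the 4 genes that were lower. RefSeq promoter windows (250 bases before to 50 bases after the annotated start, GRCm38.p6) were matched for 8 of the 10 genes, all but Tox and Ikzf3. They were searched on both strands for 7 short words that are used as core sites of these factor families. T-box proteins such as Eomes and T-bet bind sites that hold AGGTGTGA, a word found in 1.28% of all 32851 promoter windows. ZEB proteins bind the E-box that reads CACCTG, and this shorter word was found in 20.2% of all windows on either strand. For GATA factors the word was TGATAA, which 9.05% of all promoter windows of the same length held. The TCF and LEF proteins, among them TCF-1, were searched by the core CTTTGA, found in 16.0% of windows. RUNX proteins, partners of T-bet in lymphocytes, were searched by the core TGTGGT, present in 16.8% of windows. The palindrome of NFIL3, which is TTACGTAA, was found in only 0.119% of the windows, and the site of PRDM1 in 0.253%. The windows are printed on the gene's strand, with matches in capitals, for Eomes (plus strand, chr9:118477939-118478238), Tbx21 (minus strand, chr11:97115282-97115581) and Gata3 (minus strand, chr2:9878551-9878850).
Eomes: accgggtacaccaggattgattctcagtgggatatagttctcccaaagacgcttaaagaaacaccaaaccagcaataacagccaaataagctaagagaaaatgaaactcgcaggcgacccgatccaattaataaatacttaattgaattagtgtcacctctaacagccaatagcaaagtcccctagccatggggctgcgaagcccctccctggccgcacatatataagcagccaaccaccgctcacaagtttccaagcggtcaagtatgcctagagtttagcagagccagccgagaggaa
Tbx21: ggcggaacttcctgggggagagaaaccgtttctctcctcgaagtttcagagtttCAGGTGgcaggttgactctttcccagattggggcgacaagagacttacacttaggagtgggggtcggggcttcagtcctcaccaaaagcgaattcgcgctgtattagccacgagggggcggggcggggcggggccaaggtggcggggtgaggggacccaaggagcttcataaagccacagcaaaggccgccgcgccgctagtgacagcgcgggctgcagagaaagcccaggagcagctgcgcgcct
Gata3: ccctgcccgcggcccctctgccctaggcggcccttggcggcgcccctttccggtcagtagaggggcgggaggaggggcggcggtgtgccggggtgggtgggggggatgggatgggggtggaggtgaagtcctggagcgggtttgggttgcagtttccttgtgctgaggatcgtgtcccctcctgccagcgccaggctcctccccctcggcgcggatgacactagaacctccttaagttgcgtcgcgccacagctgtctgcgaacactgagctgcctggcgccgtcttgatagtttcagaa
The Tbx21 window held the ZEB word once, read as its reverse complement from 196 bases before the start. The same word stood 87 bases before the start of Prdm1, and 40 bases into the transcript from the second annotated start of Tcf7. No other of the 7 words matched any of the 8 genes, and the windows of Eomes and Gata3 held none. G and C made up 47.3% of the Eomes window and 67.3% of the Gata3 window.

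Gata3 encodes a zinc finger factor of T cells and type 2 innate lymphoid cells (ILC2) that NK cells also express (ENSMUSG00000015619; minus strand of chromosome 2, 9861889 to 9894845). It had 11.5, 6.92 and 5.90 CPM in CD36+ NK and 34.4, 31.0 and 51.8 CPM in CD36- NK. The groups were apart, although Gata3 varied more than the T-box genes within each group (log2FC -2.27, SE 0.304, edgeR adjusted p = 0.00643). The adjusted p-value lay between 0.00453 and 0.0380 when each library was left out. Of 7 ILC2 marker genes, 3 were tested and Klrg1, which mature NK cells also express, was the gene called lower. The ILC2 cytokine genes Il5 and Il13 were near 0, with at most 0.0831 and 0.195 CPM in any library.

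Tox encodes a high mobility group protein needed for innate lymphoid progenitors (ENSMUSG00000041272; minus strand of chromosome 4, 6686353 to 6991557). It had 12.7, 6.33 and 6.57 CPM in CD36+ NK and 28.4, 26.2 and 34.9 CPM in CD36- NK. Replicate 1 was the highest CD36+ NK library, at 1.94 times the next, but it stayed below every CD36- NK library. The log2FC was -1.81 (SE 0.288, edgeR adjusted p = 0.0116). Tox rested on 79 to 143 counts per library in CD36+ NK, the fewest of the 10 genes together with Gata3 (71 to 129 counts). Without any single library Tox was still called, with an adjusted p-value of at most 0.0496.

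Tcf7, which encodes TCF-1 of lymphoid progenitors, immature NK cells and T cells (ENSMUSG00000000782; minus strand of chromosome 11, 52143198 to 52174158), differed among the CD36+ NK libraries. Its level was 125 CPM in CD36+ NK replicate 1 but 34.4 and 31.7 CPM in replicates 2 and 3, and 131, 144 and 182 CPM in CD36- NK. Replicate 1 therefore had 3.63 times the level of the next CD36+ NK library and lay just below the lowest CD36- NK library. Over all 6 libraries the log2FC was -1.26 with a SE of 0.517, and Tcf7 was not called (edgeR adjusted p = 0.174). Without CD36+ NK replicate 1 the log2FC was -2.22 and Tcf7 was called lower (edgeR adjusted p = 0.00195), which made 5 of the 10 genes.

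Most genes of the T cell lineage were high in the same library, which had the highest level of 9 of 11 T cell marker genes. Over these 11, 1 (Trbc1) was lower and 2 (Cd4 and Cd8a) were higher in CD36+ NK, and the summed level was 483 CPM in CD36+ NK replicate 1, 70.8 and 87.4 CPM in replicates 2 and 3, and 185 to 311 CPM in CD36- NK. Cd3e, a chain of the CD3 complex of T cells, had 27.0 CPM in CD36+ NK replicate 1, 0.147 and 0.0831 CPM in replicates 2 and 3, and 0.615 to 1.06 CPM in CD36- NK. Bcl11b, a T cell commitment factor, had 27.9, 1.18 and 0.998 CPM in CD36+ NK and 4.24 to 8.20 CPM in CD36- NK. Lef1, the closest relative of Tcf7, had 34.5, 5.08 and 4.32 CPM in CD36+ NK and 23.3 to 30.9 CPM in CD36- NK. Tcf7 in CD36+ NK replicate 1 was thus high together with these genes, and their part in its level was not tested. Gata3 and Tox were also highest in that library among CD36+ NK, and so, by less, were Tbx21 and Nfil3. Without that library the log2FC values were -2.61 in Gata3, -2.22 in Tox, -2.38 in Tbx21 and -0.38 in Nfil3.

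**Figure D2:**
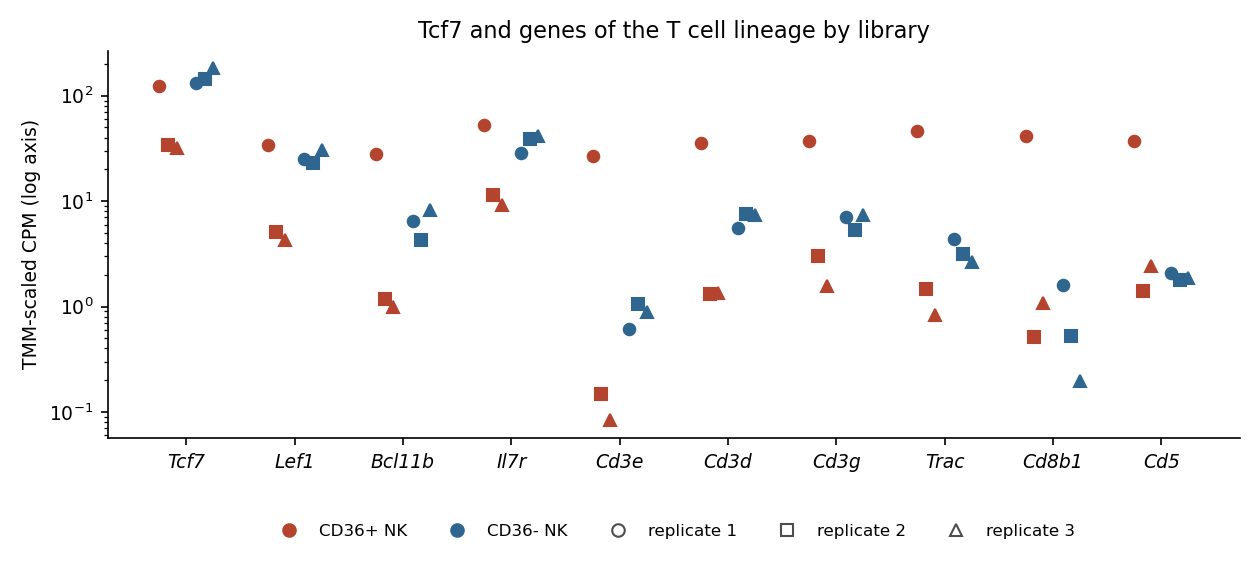
Levels of Tcf7 and of 9 genes of the T cell lineage, chosen after their values were seen, in TMM-scaled CPM (log axis), with a point for each library. CD36+ NK replicate 1 (red circles) is the highest library in every T cell gene shown, with 27.0 CPM of Cd3e against 0.0831 to 1.06 CPM in the other 5 libraries. Trbc1 and Cd28 of the T cell marker list were not highest in that library and are not shown. They had 42.0 and 51.2 CPM there, against up to 131.5 and 122.5 CPM in CD36- NK. Il7r is also in the lists of immature NK cells and of ILC1.

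Of the factors of terminal maturation other than T-bet, none was called. Prdm1, which encodes the repressor Blimp-1 (ENSMUSG00000038151; minus strand of chromosome 10, 44313173 to 44404497), had 28.7, 26.2 and 38.4 CPM in CD36+ NK and 47.0, 47.1 and 71.4 CPM in CD36- NK. The groups were apart, but the log2FC of -0.83 (SE 0.216) was below the fold threshold and the edgeR adjusted p was 0.0547. The adjusted p-value passed 0.05 with upper-quartile factors (0.0475), with DESeq2 (0.00533) and when replicate numbers entered the model as a block (0.0213), always at less than 2-fold and so without a call. Ikzf3, which encodes Aiolos (ENSMUSG00000018168; minus strand of chromosome 11, 98355728 to 98436857), had 411, 428 and 353 CPM in CD36+ NK and 504, 468 and 529 CPM in CD36- NK. These groups were close together but apart (log2FC -0.33, SE 0.108, edgeR adjusted p = 0.0989, DESeq2 adjusted p = 0.0452).

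Zeb2, a zinc finger repressor that acts with T-bet in late maturation (ENSMUSG00000026872; minus strand of chromosome 2, 44873644 to 45007407), had 162, 245 and 304 CPM in CD36+ NK and 218, 272 and 262 CPM in CD36- NK. CD36+ NK held both the lowest and the highest library, so the groups overlapped (log2FC -0.08, SE 0.222, edgeR adjusted p = 0.864). Without CD36+ NK replicate 1 the log2FC was 0.12, so the direction rested on that library. Most macrophage and Kupffer cell marker genes followed the same order as Zeb2 across the CD36+ NK libraries, such as Csf1r with 1138, 1726 and 2342 CPM and C1qa with 245, 348 and 715 CPM. In the CD36- NK libraries, C1qa (22.8, 128 and 23.4 CPM), C1qb, C1qc and Marco also had the order of Zeb2, while Csf1r (410.5, 748.5 and 242 CPM) did not. Lyz2, the most abundant gene of the list, did not follow Zeb2 in either group (4305, 4096 and 3486 CPM in CD36+ NK, 4747, 4330 and 2052 CPM in CD36- NK). Their part in the Zeb2 level was not tested.

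Id2 and Nfil3, the early factors of the innate lymphoid lineages, were not called either. Id2, an inhibitor that binds E proteins (ENSMUSG00000020644; minus strand of chromosome 12, 25143798 to 25147139), had 191, 220 and 336 CPM in CD36+ NK and 365, 376 and 380 CPM in CD36- NK. The CD36- NK libraries lay within 1.04 times of each other, whereas CD36+ NK spread over 1.76 times, up to just below CD36- NK (log2FC -0.59, SE 0.203, edgeR adjusted p = 0.116). The adjusted p of Id2 was below 0.05 at less than 2-fold without CD36+ NK replicate 3 (log2FC -0.86, edgeR adjusted p = 0.0213) and by DESeq2 (adjusted p = 0.0366). Nfil3, a basic leucine zipper factor (ENSMUSG00000056749; minus strand of chromosome 13, 53121245 to 53135109), had 79.1, 66.0 and 77.4 CPM in CD36+ NK and 98.9, 56.4 and 122 CPM in CD36- NK. The lowest library of all was a CD36- NK library, so the groups overlapped (log2FC -0.32, SE 0.259, edgeR adjusted p = 0.50). The log2FC was -0.58 without that library, CD36- NK replicate 2 (edgeR adjusted p = 0.0512), and -0.07 without CD36- NK replicate 3 (edgeR adjusted p = 0.904).

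Levels of different genes were compared per gene length, with the deposited FPKM (fragments per kilobase of gene length and per unit of sequencing depth). In CD36- NK, Tbx21 stood at the top with 98.5 ± 11.2 FPKM (SD, n = 3), followed by Id2 with 91.5 ± 2.23, Ikzf3 with 53.2 ± 2.39, Nfil3 with 46.0 ± 16.0, Tcf7 with 41.1 ± 6.61 and Eomes with 29.8 ± 4.58 FPKM. The lower part of the order held Gata3 at 7.38 ± 1.98, Zeb2 at 7.36 ± 0.896, Prdm1 at 6.49 ± 1.55 and Tox at 3.43 ± 0.462 FPKM. The ranges over libraries overlapped between Tbx21 and Id2, between Ikzf3, Nfil3 and Tcf7 as neighbours, and between Gata3, Zeb2 and Prdm1 as neighbours, so their order was not resolved.

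In CD36+ NK the order began with Id2 at 59.0 ± 16.5 FPKM (SD, n = 3), Ikzf3 at 41.2 ± 4.96 and Nfil3 at 36.1 ± 3.72 FPKM. Tbx21 was at place 4 with 19.8 ± 2.86 FPKM, beside Tcf7 with 16.9 ± 14.5 and above Zeb2 with 6.73 ± 1.86 FPKM. Eomes was at place 7 with 4.86 ± 0.371 FPKM, followed by Prdm1 with 3.56 ± 0.654, Gata3 with 1.503 ± 0.592 and Tox with 0.964 ± 0.435 FPKM. The ranges were apart between Id2 and Ikzf3, between Nfil3 and Tbx21, between Eomes and Prdm1, and between Prdm1 and Gata3. The remaining neighbours overlapped. Tbx21 therefore stood below Id2, Ikzf3 and Nfil3 in CD36+ NK, whereas in CD36- NK it was above Ikzf3 and Nfil3 and overlapped with Id2. The same order of all 10 genes was found in each group with TMM-scaled CPM per kilobase.

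**Figure D3:**
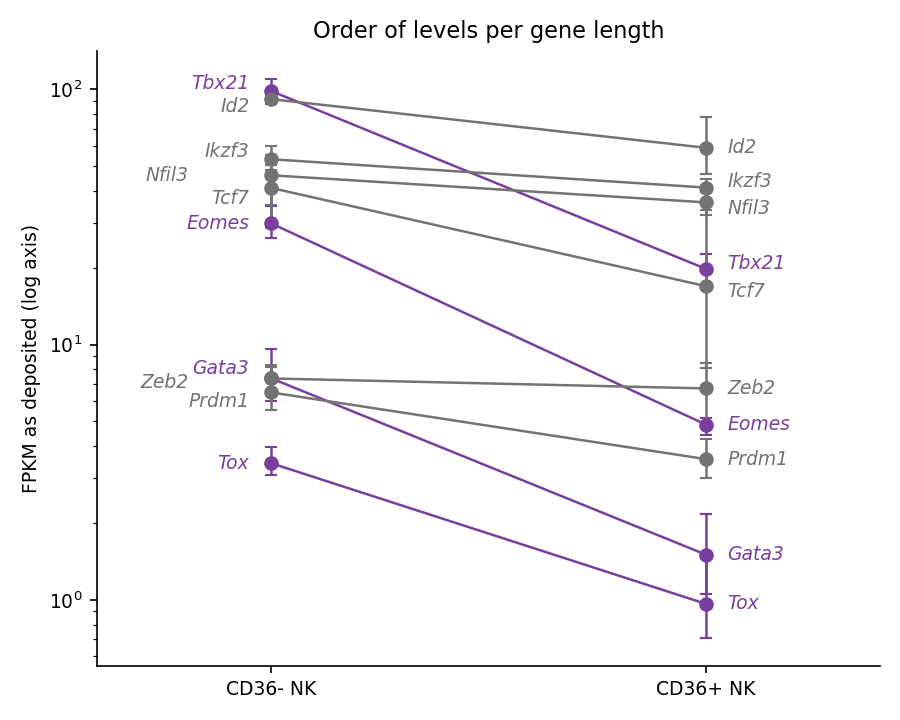
Mean FPKM (log axis) of the 10 genes in CD36- NK (left) and CD36+ NK (right), with bars from the lowest to the highest of 3 libraries and the DEGs in purple. Tbx21 goes from 98.5 to 19.8 FPKM and Eomes from 29.8 to 4.86 FPKM, while Zeb2 has 7.36 and 6.73 FPKM.

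Ratios of FPKM within a library set the factors against each other. The Eomes to Tbx21 ratio was 0.227, 0.225 and 0.294 in CD36+ NK and 0.288, 0.30 and 0.318 in CD36- NK, and these ranges overlapped. The Gata3 to Tbx21 ratio also overlapped, with 0.0743 ± 0.0188 (SD, n = 3) in CD36+ NK against 0.0741 ± 0.0118 in CD36- NK. By contrast, the Zeb2 to Tbx21 ratio was 0.354 ± 0.144 in CD36+ NK and 0.0757 ± 0.0151 in CD36- NK, without overlap. Likewise apart were Prdm1 to Eomes (0.731 ± 0.111 against 0.216 ± 0.0202), Id2 to Eomes (12.2 ± 3.27 against 3.12 ± 0.479) and Tox to Eomes (0.196 ± 0.0774 against 0.115 ± 0.00206). Tcf7 to Eomes was 6.54, 2.04 and 1.62 in CD36+ NK and 1.25, 1.51 and 1.38 in CD36- NK. CD36+ NK was above CD36- NK in that ratio in every library, narrowly in replicate 3.

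Because the 12 NK lineage genes were themselves lower in CD36+ NK (their median log2FC was -2.43), each factor was also set against their mean log2 level in the same library (pseudocount 2). This level shows unequal change between genes and, apart from the pseudocount, does not depend on the scaling of libraries to one another. With 3 libraries per group the exact permutation test (two-sided, 10 genes tested) cannot go below 0.1, so no difference could pass 0.05. Eomes was at -1.45, -1.68 and -1.13 relative to the NK genes in CD36+ NK and at -1.32, -1.28 and -1.16 in CD36- NK, a difference of -0.17 (exact p = 0.5). Tbx21 was at -0.86, -1.08 and -0.90 in CD36+ NK and -1.05, -1.06 and -1.03 in CD36- NK, a difference of 0.10 (exact p = 0.4). The difference for Gata3 was 0.31 (exact p = 0.3). These 3 genes overlapped between the groups on this scale. Their differences moved with single libraries. That of Gata3 was 0.12 without CD36+ NK replicate 1, 0.445 without CD36+ NK replicate 2 and 0.433 without CD36- NK replicate 3. That of Eomes was -0.04 without CD36+ NK replicate 2 and -0.32 without CD36+ NK replicate 3. That of Tbx21 was 0.06 without CD36+ NK replicate 1 and 0.17 without CD36+ NK replicate 2. Each overlap rested on a single library. The groups were apart in Eomes without CD36+ NK replicate 3, in Tbx21 without CD36+ NK replicate 2 and in Gata3 without CD36- NK replicate 3.

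The other 7 genes were higher relative to the NK genes in every CD36+ NK library than in any CD36- NK library, each with the smallest p the test can give (exact p = 0.1). The median log2FC was -2.43 over the NK genes and 0.0116 over all tested genes. A gene that did not change would therefore also be higher on this scale. The share of all tested genes that were higher in this way was not counted, so the 7 are not read as a trait of these factors. In Tcf7 the gap was narrow, from -1.59 in the lowest CD36+ NK library to -1.61 in the highest CD36- NK library. The groups of Tcf7 overlapped with a pseudocount of 0.5 (exact p = 0.3) and with the NK list without Gzma, Gzmb and Prf1 (exact p = 0.2). Tox and Tcf7 had the smallest such differences, 0.70 and 0.83 on the log2 scale, and without CD36+ NK replicate 1 these were 0.47 and 0.25. Prdm1 differed by 1.56, Id2 by 1.71, Ikzf3 by 2.00, Nfil3 by 2.09 and Zeb2 by 2.21. Within CD36+ NK, Ikzf3 was the tightest of the 10 genes. It was at 1.98, 1.97 and 2.04 in CD36+ NK and 0.00, 0.07 and -0.09 in CD36- NK. The B cell and macrophage marker genes were likewise higher relative to NK genes, as their summed levels above show, and their part in these differences was not tested.

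**Figure D4:**
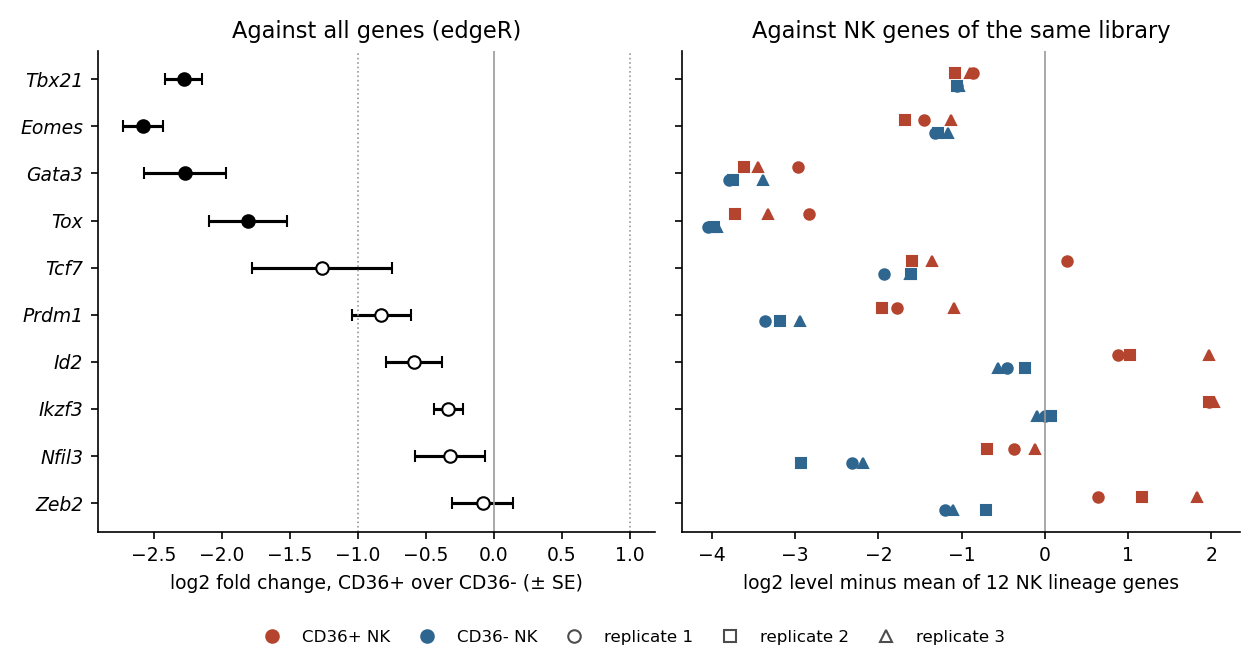
Left, log2 fold change (log2FC) of CD36+ NK over CD36- NK with its SE for the 10 genes (filled points are DEGs, dotted lines a fold change of 2). Right, the log2 level of each gene minus the mean of 12 NK lineage genes in the same library, where Tbx21, Eomes and Gata3 overlap between the groups and the other 7 genes lie to the right in CD36+ NK. The NK genes were themselves lower in CD36+ NK (median log2FC -2.43), so a gene without change would lie to the right too.

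The neighbours of these factors in NK cell development were examined in a list of 24 other transcription factor genes, of which all 24 were tested, 4 were lower and 0 were higher in CD36+ NK by edgeR and by DESeq2 (median log2FC -0.23), and 1 gene, Stat5b, was higher at an unadjusted p below 0.05. The lower genes were Stat4, which transmits the interleukin-12 signal (log2FC -1.62, SE 0.146, edgeR adjusted p = 0.00158), Smad3 of the TGF-β pathway (-1.17, 0.160 and 0.00690), and Gfi1 and Klf12 (log2FC values -1.38 and -1.76). Stat4 had 72.0, 61.0 and 55.5 CPM in CD36+ NK and 174.5, 179 and 226 CPM in CD36- NK, without overlap. In 4 more genes, Runx3, Runx1, Ets1 and Elf4, the adjusted p was below 0.05 at less than 2-fold (5.44% of all tested genes were lower by adjusted p alone), with log2FC values of -0.70, -0.50, -0.52 and -0.46. The most abundant gene by CPM, the immediate early factor Nr4a1, had 1077 to 1460 CPM in CD36+ NK and 465 to 1239 CPM in CD36- NK, and these ranges overlapped.

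Factors of tissue residency and of helper-like innate lymphoid cells formed a list of 10 genes, of which 9 were tested, 1 was lower and 0 were higher by edgeR, with 3 lower and 3 higher at an unadjusted p below 0.05 (by DESeq2, 2 were lower and 0 higher). The lower gene was Rora, a nuclear receptor of ILC2 development (4.90, 9.27 and 7.73 CPM in CD36+ NK, 19.9, 16.9 and 27.9 CPM in CD36- NK, log2FC -1.56, edgeR adjusted p = 0.0183). Maf and Bcl6 went the other way at less than 2-fold, with log2FC values of 0.77 (edgeR adjusted p = 0.0471) and 0.66 (edgeR adjusted p = 0.0197), where 5.07% of all tested genes were higher by adjusted p alone. Bhlhe40, the most abundant gene of the list, had 507, 402 and 473 CPM in CD36+ NK and 927, 392 and 996 CPM in CD36- NK, so the groups overlapped. None of 10 genes that mark ILC1 and liver-resident NK cells was called by edgeR or DESeq2 (2 were lower at an unadjusted p below 0.05), and their summed level was 536 to 650 CPM in CD36+ NK and 538 to 701 CPM in CD36- NK. Their median log2FC was -0.27. Itga1, the integrin that marks resident cells in the liver, was lower at less than 2-fold (log2FC -0.90, edgeR adjusted p = 0.00996), and so was Tnfsf10 (log2FC -0.90, edgeR adjusted p = 0.0345). In 3 of the 10 genes the log2FC was above 0, with values of 0.63 in Inpp4b, 0.45 in Cd200r1 and 0.24 in Il21r, and none of these passed the test (edgeR adjusted p-values 0.287, 0.306 and 0.261).

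**Figure D5:**
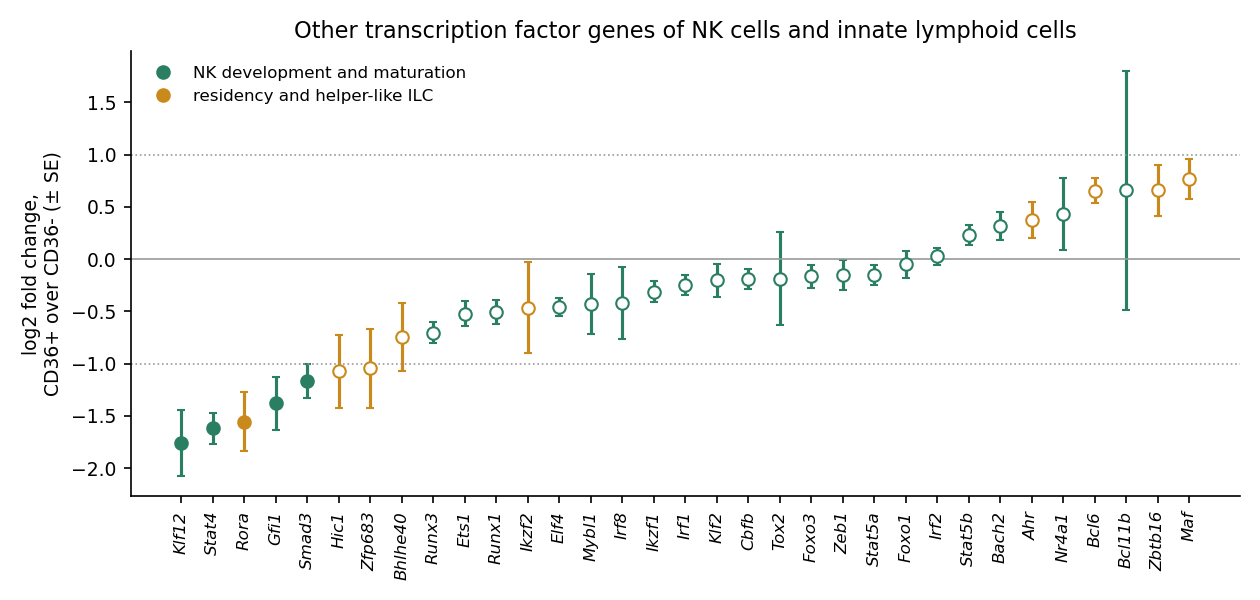
Log2 fold change (log2FC) of CD36+ NK over CD36- NK with its SE for 24 other transcription factor genes of NK development and maturation (green) and 9 tested factors of tissue residency and helper-like innate lymphoid cells (orange), with DEGs filled. The filled points, Klf12, Stat4, Rora, Gfi1 and Smad3, all lie below the dotted line at -1, and none lies above 1.

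Genes known as targets of T-bet and Eomes were mostly lower. Of 11 such genes, 8 were lower and 0 higher in CD36+ NK by edgeR and by DESeq2, and none was higher at an unadjusted p below 0.05. The median log2FC was -2.41, close to the -2.43 of the 12 NK lineage genes, so the fall was not particular to these targets. Of the 11, 4 also belong to the NK lineage list. Prf1, which encodes perforin, had a log2FC of -2.51 (SE 0.136, edgeR adjusted p = 0.000428), and Klrg1, an inhibitory receptor of mature NK cells, -2.41 (0.160 and 0.000510). The most abundant targets were Il2rb, a receptor chain for interleukin-15, with 247 to 359 CPM in CD36+ NK against 1173 to 1684 CPM in CD36- NK, and the chemokine gene Ccl5 at 220 to 293 CPM against 1073 to 1515 CPM. The 3 targets that were not called are trafficking receptors. Cxcr3 had a log2FC of -0.95 (edgeR adjusted p = 0.0188), S1pr5 -0.74 (edgeR adjusted p = 0.0767) and Cx3cr1 0.51 (edgeR adjusted p = 0.367).

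Lower genes were found among the genes of both maturation stages. Of 6 genes of mature NK cells, 3 were lower (Cma1, Klrg1 and Itgam) and 0 higher, and of 6 genes of immature NK cells 3 were lower (Cd226, Kit and Cd27) and 0 higher. DESeq2 gave the same counts, and none of the 12 genes was higher at an unadjusted p below 0.05. The log2FC values of the mature genes that were called were -2.66 in Cma1, -2.41 in Klrg1 and -1.08 in Itgam, and those of the immature genes -1.63 in Cd27, -1.57 in Cd226 and -1.15 in Kit. Their medians over the 6 genes were -0.91 and -1.02. Spn, the most abundant of the mature genes, had 332 to 465 CPM in CD36+ NK and 510 to 557 CPM in CD36- NK (log2FC -0.42, edgeR adjusted p = 0.0948). Itgav, the most abundant of the immature genes, had 24.1 to 97.1 CPM against 23.7 to 67.6 CPM, and the groups overlapped.

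Relatives of the 10 genes in their protein families were listed as well. Of 27 relatives, 19 were tested, 0 were lower and 1 was higher by edgeR and by DESeq2, with 3 in each direction at an unadjusted p below 0.05. The higher gene was Tcf7l2, a relative of Tcf7, with 11.5, 23.1 and 28.2 CPM in CD36+ NK and 1.85, 6.10 and 0.684 CPM in CD36- NK (log2FC 2.86, SE 0.676, edgeR adjusted p = 0.0405). The order of its libraries within each group was that of the macrophage genes Csf1r and Adgre1 (225, 348 and 581 CPM in CD36+ NK and 58.6, 135 and 35.7 CPM in CD36- NK for Adgre1), and their part in this call was not tested. The T-box relative Tbr1 had at most 0.879 CPM in any library and was not tested, so Eomes and Tbx21 had no tested relative in the list. Gata2, a relative of Gata3, had 3.75 to 10.4 CPM in CD36+ NK and 10.2 to 15.3 CPM in CD36- NK (log2FC -0.98, edgeR adjusted p = 0.140). Another GATA gene, Gata4, was at 0 in all 6 libraries. Ikzf1 and Prdm2, the most abundant relatives by CPM, had log2FC values of -0.31 and -0.11 and were not called. Tox4, a broadly expressed relative of Tox, had a log2FC of -0.05 (edgeR adjusted p = 0.841).

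Id2 acts by binding E proteins, so their genes were listed with the other Id genes. Of 6 genes, 5 were tested and 0 were called by edgeR or DESeq2, with 1 in each direction at an unadjusted p below 0.05. The E protein gene Tcf3 had 156 to 170 CPM in CD36+ NK and 149 to 166 CPM in CD36- NK, and Tcf12 had 63.8 to 85.2 CPM against 96.0 to 119.5 CPM (log2FC -0.52, edgeR adjusted p = 0.0547). Id3, a paralog of Id2, had 46.2, 43.6 and 24.0 CPM in CD36+ NK and 28.3, 22.7 and 17.8 CPM in CD36- NK (log2FC 0.72, edgeR adjusted p = 0.150). Id4 was at 0 in the 3 CD36+ NK libraries and at no more than 0.154 CPM in CD36- NK.

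The genes whose levels followed a factor most closely over the 6 libraries were found by the root mean square difference of centred log2 CPM (pseudocount 2) among 10009 tested genes with a mean of at least 10 CPM. As a description, the closest gene to Tbx21 was Il2rb (difference 0.0792), followed by Gpc1 and Klrg1. The closest to Eomes was Samd3 (0.0895), followed by a gene without a symbol (ENSMUSG00000121359) and Styk1, and the closest to Gata3 was Prkcq (0.0996), followed by Znrf3 and Eya2. Tox was closest to Sema4a (0.125), then Sla2 and Btbd11. Ikzf3 had a near partner in Tmc8 (0.0247), followed by Dcaf15 and B4galnt1. First neighbours also included Nfil3 with Zc3h12a (0.0725), Zeb2 with Sfmbt1 (0.0809), Id2 with Dcxr (0.0871) and Prdm1 with Kif19a (0.0995). Among the 10 factors themselves, Eomes and Tbx21 were the closest pair (0.187), followed by Tbx21 and Gata3 (0.215) and by Gata3 and Tox (0.233).

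The strand setting of the counting was not given in the sources used here, so reads of antisense genes cannot be told apart from those of the factors. Annotated genes on the other strand with any count overlapped Eomes, Zeb2 and Tcf7 and left 7 of the 10 factors without one. Their counts were small: Gm33460 had 0.951% of the Eomes counts, Zeb2os 2.69% of the Zeb2 counts, and A630014C17Rik 0.658% of the Tcf7 counts. Zeb2os had 52, 110 and 121 counts in CD36+ NK and 78, 55 and 52 counts in CD36- NK.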

How the data were processed

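The authors used Seqtk to filter reads, HISAT2 for mapping and StringTie for counting. Fragment counts per gene were deposited without normalization. The authors also deposited FPKM, in which each count is scaled by the length of the gene and the total of the library. The submitters' processing notes name HISAT2 2.0.4 and mRatBN7.2, a rat assembly, although the gene identifiers are mouse. The build of the table's coordinates was not given in the sources used here. The broken lines of 2 genes were rejoined.

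Counts were analysed with edgeR 4.0.16 (limma 3.58.1, R 4.3.3). Genes were kept by filterByExpr (minimum count 10) and scaled by TMM, and the groups were compared with the quasi-likelihood test on all 6 libraries without a block. P-values were adjusted by the Benjamini-Hochberg method over all 14761 genes, and DEGs had to pass both 0.05 in adjusted p and 2 in fold change. Each SE is the size of the log2FC over the square root of F. The biological coefficient of variation was 20.3%. Replicates of a group differed beyond sampling noise (chi-square per degree of freedom 14.8 to 29.2). FPKM were used only to compare levels between genes. Exact permutation tests were run with scipy 1.17.1, and figures were drawn with matplotlib 3.10.9. On simulated counts of this comparison with 200 changed genes among 14761, 151 (75.5%) were called, with 12 unchanged genes.

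The 10 genes and the gene lists were chosen with earlier results of these data known. Named genes were the 10 factors, Cd36, the 2 called genes of lowest p in each direction and the 2 genes of highest mean CPM of each list, list genes at 0 in a group, and the 3 closest profiles of each factor (those of Tcf7 are not reported here). For marker lists of other cells, only some of the genes under this rule are named. Any other gene in the text was picked after its values had been seen. Promoter sequences are from RefSeq. Alternatives were DESeq2 1.42.0, other size factors, filters and fold thresholds, blocks by replicate number and by the form of the library name, each library left out in turn, another pseudocount and other NK reference genes.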

Additional observations from a re-analysis of the deposited data

How the results depend on the processing

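Of the 10 factors, 4 were called under 13 of the 15 alternatives, with Eomes, Tbx21 and Gata3 called under all 15. Tox was not called at a fold change above 4, and Tcf7 was called when CD36+ NK replicate 1 was left out. Leaving out libraries thus gave 4 to 5 called genes. The log2FC of Zeb2 ran from -0.30 to 0.118 when libraries were left out, with 0.118 without CD36+ NK replicate 1. Among all genes, 880 DEGs became 1552 with no fold threshold and 376 at a fold change above 4. Leaving out each library gave 417 to 1160 DEGs. It gave 418 without CD36+ NK replicate 2, 451 without CD36+ NK replicate 3, 417 without CD36- NK replicate 1 and 431 without CD36- NK replicate 3, and the cause was not tested. By direction, 440 lower and 440 higher DEGs became 323 and 94 without CD36- NK replicate 1, 298 and 120 without CD36+ NK replicate 2, 319 and 132 without CD36+ NK replicate 3, 288 and 143 without CD36- NK replicate 3, 452 and 708 without CD36- NK replicate 2, and 491 and 652 by DESeq2. The replicate number as a block gave 560 DEGs (339 lower and 221 higher) and the same 4 factors. The numbers were not taken to pair the libraries, since deviations of same-numbered libraries correlated across genes by 0.367, 0.0871 and -0.0860, and not every library correlated best with its own number. These numbers are those of the sample titles, and the library names number some CD36- NK libraries otherwise. Both replicate 1 libraries have names of another form than the rest. With that form as a block there were 912 DEGs, and the same 4 factors were called. Tcf7 then had a log2FC of -1.57 and was not called (edgeR adjusted p = 0.0867). Levels relative to NK genes kept their sign for each of the 10 factors over 9 alternatives, but the groups of Tcf7 overlapped in 2 of them (a pseudocount of 0.5, and the NK list without Gzma, Gzmb and Prf1). The overlaps of Eomes, Tbx21 and Gata3 on that scale each ended when a single library was left out. These were CD36+ NK replicate 3, CD36+ NK replicate 2 and CD36- NK replicate 3 in turn. The order of levels was the same in TMM-scaled CPM per kilobase for 10 of 10 genes in each group. Gata3 and Tox had the fewest counts (71 to 143 per CD36+ NK library), and Tcf7 had the largest SE of the 10 genes (0.517).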

Other observations

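The remaining marker lists were examined as a description of what the sorted fractions held. Of 7 erythroid genes, 5 were higher in CD36+ NK, with summed levels of 334 to 773 CPM against 72.9 to 161 CPM. Neutrophil genes had 0 of 8 called by edgeR (1 by DESeq2, and 1 at an unadjusted p below 0.05), and their summed level was 2800 CPM in CD36+ NK replicate 1, 520 and 586 CPM in replicates 2 and 3, and 877 to 2176 CPM in CD36- NK. Dendritic cell genes had 1 of 8 lower and 2 higher, with summed levels of 301 to 365 CPM in CD36+ NK and 481 to 661 CPM in CD36- NK. That sum was carried by the lower gene Itgax, which NK cells also express (197 to 255 CPM against 415 to 611.5 CPM), whereas Xcr1 and Clec9a were the higher genes (log2FC 2.46 and 2.03). Plasmacytoid dendritic cell genes had 1 of 8 lower and 0 higher by edgeR (0 lower and 1 higher by DESeq2, 1 and 4 at an unadjusted p below 0.05), with 704 to 821 CPM against 473 to 622 CPM, and monocyte genes 1 of 8 lower and 1 higher by edgeR (3 lower and 1 higher by DESeq2, 4 and 1 at an unadjusted p below 0.05), with 943 to 1767 CPM against 1207 to 2167 CPM. Of 6 plasma cell genes, 0 were called by edgeR or DESeq2 (2 were higher at an unadjusted p below 0.05), and their summed level was 1237 to 1866 CPM in CD36+ NK and 888 to 1427 CPM in CD36- NK. Of 7 liver endothelial genes, 4 were tested and 0 called by edgeR (2 by DESeq2, and 3 at an unadjusted p below 0.05, all higher), with 213 to 307 CPM in CD36+ NK and 154 to 169.9 CPM in CD36- NK. Only 1 of 7 hepatocyte genes and 2 of 7 stellate cell genes had enough counts to be tested, and 1 of each list was higher in CD36+ NK. The hepatocyte gene was Trf, with 278, 381 and 792 CPM in CD36+ NK and 106, 189.6 and 63.7 CPM in CD36- NK, which made up nearly all of that list's sum, and its order in CD36+ NK was also that of most macrophage genes. Alb, the defining hepatocyte gene, had at most 7.80 CPM in any library. The summed level of the stellate cell genes was 6.77 to 8.81 CPM against 2.44 to 5.61 CPM.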
